A study of Mus musculus with 5 samples.

Results

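*Atf4*, its stress-response targets and the enzymes of serine and one-carbon synthesis were examined in kidney cortical tissue of *Fnip1* null and wildtype mice. The set was a list of 10 gene symbols (*Atf4*, *Ddit3*, *Trib3*, *Chac1*, *Asns*, *Phgdh*, *Psat1*, *Psph*, *Shmt2* and *Mthfd2*), chosen by name and role. All 10 were found among the 24421 gene symbols counted, and all 10 passed the filter on low counts. RNAseq had been performed on 3 *Fnip1* null mice (*Fnip1*-/-, mice 8637, 9210 and 9121) and 2 wildtype mice (labelled *Fnip1*+/+, mice 9055 and 9056), with 1 library per mouse. All 5 mice were C57BL6J, no drug or diet was given in their labels, and the kidneys were frozen directly after isolation. The null allele came from chemical mutagenesis with ENU and is carried in every cell of the animal, including blood and immune cells, so differences cannot be assigned to the kidney epithelium alone. The labels gave no age or sex, and the study's text gives an age range for the mice as a group. That text in places calls the control mice heterozygous, and counts more wildtype mice than were analysed here. The deposited data of mouse 9210 carry another mouse number than its label, and the label was used. The mice are separate animals, so p-values weigh the genotype difference against the spread between mice of the same genotype. That spread was estimated in part from all genes tested.

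ATF4 is the transcription factor of the integrated stress response. When one of the eIF2 kinases (PERK, GCN2, PKR or HRI) phosphorylates the initiation factor eIF2, most protein synthesis slows while the *Atf4* mRNA is translated more, so that ATF4 protein can increase without any increase in its mRNA. ATF4 also acts downstream of mTORC1, and its targets include genes for amino acid synthesis and uptake, transfer RNA charging and stress signalling. In the serine pathway, PHGDH, PSAT1 and PSPH convert a glycolytic intermediate to serine, and SHMT2 and MTHFD2 pass the serine carbon to folate inside mitochondria. Proximal tubule cells of the kidney are a known site of serine synthesis.

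Short stretches of promoters show where the DNA element usually bound by ATF4 and C/EBP proteins occurs in these genes. The letters TGATGNAA were searched on both strands from 250 bases before to 50 bases after each gene start of RefSeq (GRCm38.p6). They were present in 1304 of 32851 such windows (3.97%) and in the windows of 3 of the 10 genes, *Asns*, *Trib3* and *Chac1*. Capitals mark the match, which reads as the reverse complement of these letters where it lies on the opposite strand.
Asns: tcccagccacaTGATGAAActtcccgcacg
Trib3: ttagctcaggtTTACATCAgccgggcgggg
Chac1: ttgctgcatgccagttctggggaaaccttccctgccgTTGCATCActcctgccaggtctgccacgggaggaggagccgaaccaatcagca
The *Asns* stretch is chr6:7693214-7693243 on the minus strand, with the match beginning 23 bases before the start. The *Trib3* stretch is chr2:152344028-152344057 on the minus strand, with the match 15 bases after the start, and the *Chac1* stretch is chr2:119351012-119351101 on the plus strand, with the match 193 bases before it. The windows of *Atf4*, *Ddit3*, *Phgdh*, *Psat1*, *Psph*, *Shmt2* and *Mthfd2* held no match, which says only that these letters are not in these windows. A match is a description of the sequence and was not tested as a binding site. The 10 genes were chosen in part as ATF4 targets, so their share of matches is not a test either.

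Libraries held 15799114 to 19132145 counts on genes, and 3 counts in a mouse correspond to 0.158 to 0.186 CPM, the counts scaled to libraries of equal size with TMM normalization. *Fnip1* itself (chr11:54438199-54518235) was measured at 21.0, 16.9 and 16.0 CPM in *Fnip1* null mice 8637, 9210 and 9121 and at 51.8 and 48.7 CPM in wildtype mice 9055 and 9056, with an adjusted p of 0.033. Mouse 9121 stood apart from the other 4 mice in its sex genes, which read as female in mouse 9121 and as male in the others. The *Fnip1* null group thus mixed the sexes while the wildtype group did not, and the part of sex in the differences was not tested. *Xist* was at 314 CPM in mouse 9121 and at 0.17 to 1.41 CPM in the others, and the Y-linked genes *Ddx3y*, *Kdm5d* and *Uty* were at 0 in mouse 9121 only. Adipocyte markers summed to 193 CPM in mouse 9210 and 68.8 CPM in mouse 9121, against 3.54 to 8.64 CPM in the other 3 mice. Because of the sex genes, log2 fold changes of the 10 genes and of most other pathway genes named are given with and without mouse 9121. Leaving out mouse 9121 keeps mouse 9210, which had the highest adipocyte sum, and the part of adipocytes in the differences was not tested.

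Cell type markers were counted by whether the genotypes overlapped, and among all genes tested 22.9% lay above and 23.0% below in every *Fnip1* null mouse without overlap. All 6 markers of the S3 segment of the proximal tubule were measured, and 4 were lower in every *Fnip1* null mouse than in both wildtype mice, with sums of 1472 to 3899 CPM in *Fnip1* null and 7161 to 7952 CPM in wildtype mice. Among 10 markers of the S1 and S2 segments, 3 were lower and 2 higher without overlap, and the sums were 10298 to 14361 CPM against 14552 to 16087 CPM. All 5 podocyte markers were higher in every *Fnip1* null mouse (659 to 773 CPM against 367 to 370.4 CPM). The same held for 5 of 6 collecting duct markers (695 to 964 CPM against 545 to 562 CPM). It held for 4 of 6 endothelial markers (331 to 398 CPM against 174 to 288 CPM). It also held for 5 of 6 fibroblast and smooth muscle markers (277 to 528 CPM against 148 to 256 CPM). Of 6 tubular injury markers, 3 were higher in this way (1932 to 2807 CPM against 810.2 to 823 CPM). These sums were nearly all *Spp1*. *Spp1* was at 1906, 2774 and 2636 CPM in *Fnip1* null mice 8637, 9210 and 9121 and at 794 and 813 CPM in wildtype mice. The injury markers *Havcr1*, *Vcam1* and *Sox9* overlapped, and *Krt20*, counted among the 3 higher, did not pass the filter. Of 10 leukocyte markers, 6 were higher and 2 lower without overlap (97.9 to 219 CPM against 102 to 122 CPM). The 2 lower ones were *Csf1r* and *Cd79a*, a B cell marker that did not pass the filter and was at 0 in all 3 *Fnip1* null mice. *Csf1r* was the larger part of the wildtype sums, at 72.4 and 68.4 CPM in mice 9055 and 9056. It was at 38.2, 36.4 and 63.9 CPM in *Fnip1* null mice 8637, 9210 and 9121. The macrophage markers *Adgre1*, *Cd68* and *Itgam* were among the 6 higher. No list had a marker at 0 in all 5 mice. What part these lists have in the differences below was not tested, and in a whole-tissue library fewer cells of a type and less RNA per cell cannot be told apart.

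None of the 10 genes passed the threshold, an FDR of 5% together with a 2-fold difference, by edgeR's quasi-likelihood test with adjustment over 13874 genes. That threshold was passed by 0.526% of all genes tested. The edgeR exact test, its likelihood ratio test and DESeq2 also gave 0 of 10, against 4.11%, 4.53% and 3.52% of all genes. At an unadjusted p under 0.05, *Phgdh* and *Ddit3* were higher (14.0% of all genes) and *Shmt2* was lower (11.2% of all genes), 3 of 10 in either direction against 25.1% of all genes. Leaving out mouse 9121 also gave 0 of 10, against 0.973% of all genes. Every *Fnip1* null mouse lay above both wildtype mice for 4 of the 10 genes, *Phgdh*, *Ddit3*, *Mthfd2* and *Trib3*, and below them for *Shmt2*. Among all genes tested, 22.9% lay above and 23.0% below, so 5 of 10 without overlap is close to the 45.9% of all genes. The median log2 fold change of the 10 genes was 0.33, against 0.0035 for all genes tested. Without TMM, with library size only, these medians were 0.50 and 0.17.

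**Figure D1:**
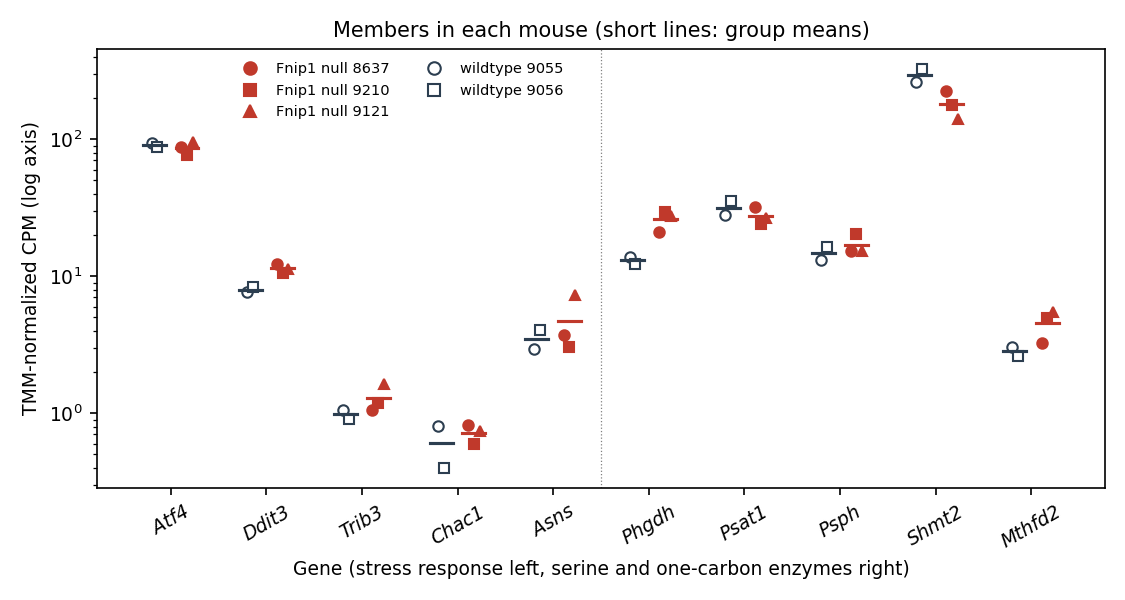
TMM-normalized CPM (log axis) of the 10 genes in each of the 3 *Fnip1* null mice (filled symbols) and 2 wildtype mice (open symbols), with short lines for the group means. *Phgdh*, *Ddit3*, *Mthfd2* and *Trib3* have every *Fnip1* null mouse above both wildtype mice, *Shmt2* has every one below, and the groups overlap for the other 5 genes.

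The mRNA of *Atf4*, which encodes the transcription factor itself (chr15:80255184-80257541), was close to equal in the 2 genotypes. It was measured at 87.6, 77.1 and 95.3 CPM in *Fnip1* null mice 8637, 9210 and 9121 and at 93.3 and 88.3 CPM in wildtype mice 9055 and 9056. The groups overlapped, with mice 9210 and 9121 of the *Fnip1* null group at the lowest and the highest end. The log2 fold change was -0.07 (SE 0.11, 95% interval -0.34 to 0.20, adjusted p = 0.736), and -0.14 without mouse 9121. At 1297 to 1804 counts per mouse, this interval leaves out a change of 2-fold in either direction. Under library size scaling the value was 0.096, so its sign depends on the scaling. RNAseq does not measure ATF4 protein or its translation.

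*Ddit3*, which encodes the pro-apoptotic factor CHOP, was at 12.3, 10.6 and 11.4 CPM in *Fnip1* null mice 8637, 9210 and 9121 and at 7.64 and 8.35 CPM in wildtype mice 9055 and 9056. All 3 *Fnip1* null mice were above both wildtype mice, and mice within a genotype differed little. The fold change was 1.43 (95% interval 1.11 to 1.83), the unadjusted p was 0.012 and the adjusted p was 0.116. Without mouse 9121 the log2 fold change was 0.52, against 0.51 with all mice, and with any 1 mouse left out it ran from 0.45 to 0.58. GENCODE M21 holds 2 overlapping entries named *Ddit3*, the longer at chr10:127290774-127296288. Of the exon length of *Ddit3*, 9.10% overlaps the neighbours *Mars* or *Gm4189*, and reads there cannot be assigned by position alone.

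*Trib3*, a pseudokinase that is induced by ATF4 and CHOP and restrains them, was measured at low level. It had 18, 20 and 31 counts in *Fnip1* null mice 8637, 9210 and 9121 (1.061, 1.19 and 1.64 CPM) and 17 and 16 counts in wildtype mice 9055 and 9056 (1.056 and 0.915 CPM). The groups did not overlap, but mouse 8637 differed from mouse 9055 by only 1 count. The log2 fold change was 0.40 (95% interval -0.43 to 1.24, adjusted p = 0.495) and 0.19 without mouse 9121.

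*Chac1*, a glutathione-degrading enzyme and one of the most inducible ATF4 targets, was lower still, with 7 to 14 counts per mouse. Its levels were 0.825, 0.595 and 0.739 CPM in *Fnip1* null mice 8637, 9210 and 9121 and 0.808 and 0.400 CPM in wildtype mice 9055 and 9056. The 2 wildtype mice spanned nearly the whole range of the *Fnip1* null mice. The log2 fold change was 0.27 with a 95% interval of -0.85 to 1.38 (adjusted p = 0.749), which leaves out neither equal levels nor a 2-fold increase, and the log2 fold change was 0.25 without mouse 9121.

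*Asns*, the asparagine synthetase, stood out in 1 mouse. It was at 3.71, 3.03 and 7.34 CPM in *Fnip1* null mice 8637, 9210 and 9121 and at 2.92 and 4.06 CPM in wildtype mice 9055 and 9056. Mouse 9121 was above the other 4 mice, which overlapped. The log2 fold change of 0.43 (95% interval -0.58 to 1.45, adjusted p = 0.546) therefore rested on mouse 9121, and was -0.054 without it.

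*Phgdh*, the enzyme of the committed step of serine synthesis (chr3:98313170-98339990), had the largest difference of the 10 genes. It was at 20.9, 29.3 and 27.7 CPM in *Fnip1* null mice 8637, 9210 and 9121 and at 13.9 and 12.3 CPM in wildtype mice 9055 and 9056. All 3 *Fnip1* null mice were above both wildtype mice, with mouse 8637 the lowest of the 3. The fold change was 1.98 (95% interval 1.47 to 2.67, unadjusted p = 0.0012, adjusted p = 0.0655), just short of both the FDR and the 2-fold line. Adjusted p was 0.000411 by the exact test and 0.000413 by DESeq2, at a fold change still just under 2-fold. Without mouse 9121 the log2 fold change was 0.94 (adjusted p = 0.0733). Without mouse 8637 it was 1.12 (adjusted p = 0.00739), which passed the threshold, as did 6.82% of all genes in that comparison. Without mouse 9210 it was 0.89 (adjusted p = 0.234), in a comparison where 0 of all genes passed the threshold. Of all 50-base stretches of the *Phgdh* transcripts, 47.8% occur also in other annotated genes, 23 in number, including pseudogenes. Reads from such stretches may align to more than 1 place and are then left out by the counting, and the effect on the *Phgdh* count was not tested.

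The next enzymes of the pathway overlapped between the genotypes. *Psat1*, the phosphoserine aminotransferase, was at 31.9, 24.2 and 26.6 CPM in *Fnip1* null mice 8637, 9210 and 9121 and at 27.8 and 35.3 CPM in wildtype mice 9055 and 9056. The groups overlapped and the log2 fold change was -0.20 (95% interval -0.59 to 0.20, adjusted p = 0.485), or -0.17 without mouse 9121. *Psph*, the phosphoserine phosphatase that releases free serine, was at 15.3, 20.3 and 15.2 CPM against 13.1 and 16.4 CPM, mice in the same order. Its log2 fold change was 0.20 (95% interval -0.25 to 0.65, adjusted p = 0.534), or 0.27 without mouse 9121. Both intervals leave out a 2-fold change. *Psph* shares 26.1% of its exon length with the overlapping gene *Cct6a*. The difference between the fold changes of *Phgdh* and of the other enzymes was not tested. Per length, the ratio of *Psat1* to *Phgdh* was 0.983 in mouse 8637, 0.532 in mouse 9210 and 0.619 in mouse 9121 of the *Fnip1* null group, against 1.29 and 1.85 in wildtype mice 9055 and 9056, a ratio chosen after the values were seen and given with no test.

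*Shmt2*, the mitochondrial serine hydroxymethyltransferase (chr10:127517123-127522444), lay lower in *Fnip1* null than in wildtype kidney tissue. It was at 227, 178 and 139.7 CPM in *Fnip1* null mice 8637, 9210 and 9121 and at 260.0 and 325 CPM in wildtype mice 9055 and 9056. The groups did not overlap, with both wildtype mice on top and mouse 9121 lowest. The fold change was 0.621 (95% interval 0.437 to 0.883, unadjusted p = 0.0158, adjusted p = 0.127), or -0.53 on the log2 scale without mouse 9121 against -0.69 with it. The exact test and DESeq2 gave adjusted p of 0.0496 and 0.0344, short of a 2-fold change. Of the S3 markers, *Slc7a13* was at 600.2, 202 and 4.17 CPM in *Fnip1* null mice 8637, 9210 and 9121 and at 1206 and 1377 CPM in wildtype mice 9055 and 9056, and *Acy3* was at 1319, 696 and 600.4 CPM against 2575 and 3119 CPM. The S3 markers *Slc5a8* and *Atp11a* also lay below both wildtype mice in every *Fnip1* null mouse, with mouse 9121 lowest. The other 2 S3 markers overlapped and were highest in mouse 9121, *Slc22a19* at 75.8, 90.3 and 189 CPM against 169 and 158 CPM and *Slc22a13* at 56.7, 55.9 and 94.6 CPM against 90.9 and 87.5 CPM. The part of these markers, or of the sex of mouse 9121, in the *Shmt2* difference was not tested.

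*Mthfd2*, the next mitochondrial enzyme of the folate path, lay in the opposite direction. It was at 3.24, 4.93 and 5.44 CPM in *Fnip1* null mice 8637, 9210 and 9121 and at 3.04 and 2.63 CPM in wildtype mice 9055 and 9056. All 3 *Fnip1* null mice were above both wildtype mice, mouse 8637 by the least. The log2 fold change was 0.68 (95% interval -0.00052 to 1.36, adjusted p = 0.199), or 0.53 without mouse 9121. Without mouse 8637, *Mthfd2* (0.87, adjusted p = 0.0422) and *Shmt2* (-0.88, adjusted p = 0.0194) passed the FDR but not the 2-fold line, as 20.1% of all genes passed the FDR in that comparison. Without mouse 9210 neither passed the FDR, with 0.62 for *Mthfd2* (adjusted p = 0.429) and -0.67 for *Shmt2* (adjusted p = 0.328).

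**Figure D2:**
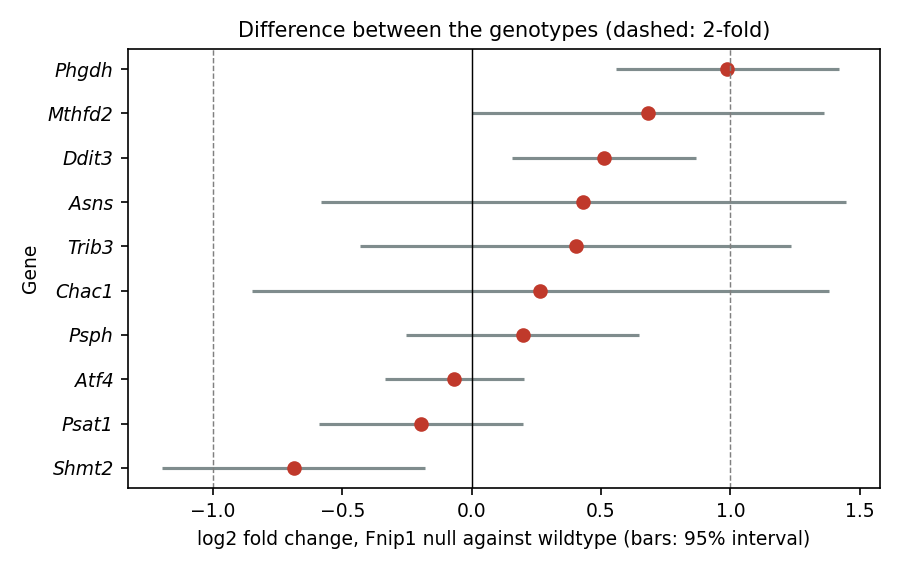
Log2 fold change of each of the 10 genes, *Fnip1* null against wildtype, from the quasi-likelihood fit (points) with its 95% interval (bars), and dashed lines at a 2-fold change. The intervals of *Phgdh*, *Ddit3* and *Shmt2* leave out 0, that of *Mthfd2* touches it, and those of *Atf4*, *Psat1*, *Psph*, *Trib3*, *Chac1* and *Asns* include it. The intervals of *Atf4*, *Ddit3*, *Psat1* and *Psph* lie within the 2-fold lines, and those of the other 6 genes reach past one of them.

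Relative to transcript length (RPKM, TMM-normalized counts per kilobase of exon, scaled as CPM), the 10 genes spanned a wide range. In wildtype mice the mean level was highest for *Shmt2* (127 RPKM), followed by *Atf4* (52.6 RPKM). *Psat1* (10.8 RPKM), *Ddit3* (8.98 RPKM), *Psph* (8.52 RPKM) and *Phgdh* (6.92 RPKM) came next, and neighbours in that order overlapped in their ranges over the 5 mice. *Asns* (1.61 RPKM) and *Mthfd2* (1.36 RPKM) overlapped each other, as did *Trib3* (0.487 RPKM) and *Chac1* (0.369 RPKM). In *Fnip1* null mice the mean levels were 78.8 RPKM for *Shmt2* and 50.2 RPKM for *Atf4*, and *Phgdh* stood at 13.7 RPKM, above *Ddit3* (12.8 RPKM), *Psph* (9.77 RPKM) and *Psat1* (9.39 RPKM). The strongly inducible targets *Trib3*, *Chac1*, *Asns* and *Mthfd2* had means of 0.440 to 2.18 RPKM in *Fnip1* null mice.

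Other genes of the same pathways were taken from lists by role, 132 genes of which 125 passed the filter. By the quasi-likelihood test 0 of the 125 passed the FDR and 2-fold threshold. The exact test and DESeq2 each gave 8 of the 125, against 4.11% and 3.52% of all genes tested. By the exact test *Aldh1l2*, *Atf3*, *Cebpd* and *Nupr1* were higher and *Cbs*, *Ggct*, *Ggt1* and *Slc1a4* lower. At an unadjusted p under 0.05, 16 of the 125 were higher and 32 lower in *Fnip1* null mice, against 14.0% and 11.2% of all genes, and 20 lay above and 48 below without overlap, against 22.9% and 23.0% of all genes. Their median log2 fold change was -0.14 (0.026 under library size scaling). *Slc46a1*, the proton-coupled folate transporter, passed the FDR alone, as 0.678% of all genes did. It was at 44.3, 42.8 and 44.0 CPM in *Fnip1* null mice 8637, 9210 and 9121 and at 66.6 and 69.5 CPM in wildtype mice 9055 and 9056 (fold change 0.642, adjusted p = 0.0411), and was named after its values were seen.

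Upstream of ATF4, 14 genes of eIF2 kinases, phosphatase subunits and the exchange factor eIF2B were tested. The log2 fold change was above 0 for 4 and below 0 for 10 of them (median -0.12), and 1 was higher and 0 lower at an unadjusted p under 0.05 (14.0% and 11.2% of all genes). *Eif2ak3*, the PERK kinase of the endoplasmic reticulum, was at 49.8 ± 3.84 CPM (SD, n = 3) in *Fnip1* null and 49.5 ± 0.113 CPM (SD, n = 2) in wildtype mice (log2 fold change -0.024 without mouse 9121). *Eif2ak4*, the amino acid sensor GCN2, had a log2 fold change of 0.24 (adjusted p = 0.280, 0.20 without mouse 9121), and *Gcn1l1*, its activator, had the lowest value of the list (-0.27, adjusted p = 0.249, -0.20 without mouse 9121). *Ppp1r15a*, the inducible phosphatase subunit GADD34 that reverses eIF2 phosphorylation, was at 18.0 ± 1.15 CPM in *Fnip1* null and 14.3 ± 0.290 CPM in wildtype mice (log2 fold change 0.33, adjusted p = 0.166, 0.28 without mouse 9121).

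Among 18 other ATF4 targets, 16 were tested, 11 with a positive and 5 with a negative log2 fold change (median 0.38). At an unadjusted p under 0.05, 5 of the 16 were higher and 2 lower, against 14.0% and 11.2% of all genes. *Nupr1*, a stress-induced chromatin protein, was at 10.02, 16.5 and 18.3 CPM in *Fnip1* null mice 8637, 9210 and 9121 and at 5.72 and 4.80 CPM in wildtype mice 9055 and 9056. The groups did not overlap, and the log2 fold change was 1.51 (adjusted p = 0.0710), or 1.34 without mouse 9121. *Atf3*, a stress-induced factor that is also an immediate early gene, was at 4.01, 2.26 and 5.33 CPM against 1.80 and 1.03 CPM, mice in the same order (log2 fold change 1.46, adjusted p = 0.129, 1.15 without mouse 9121). All 7 immediate early genes on a separate list lay higher in every *Fnip1* null mouse, with sums of 87.3 to 142 CPM against 50.2 to 65.4 CPM. Among all genes tested 22.9% lay higher in this way, but *Fosb*, 1 of the 7, did not pass the filter, with 2 to 12 counts per mouse. The part of these genes in the *Atf3* difference was not tested. *Atf5*, a relative of *Atf4*, had a log2 fold change of 0.58 (adjusted p = 0.203, 0.45 without mouse 9121), *Ddit4*, an inhibitor of mTORC1, 0.35 (adjusted p = 0.521, 0.49 without mouse 9121), and *Aldh18a1*, the first enzyme of proline synthesis, 0.52 (adjusted p = 0.371), which was 0.26 without mouse 9121. *Sesn2*, another inhibitor of mTORC1 signalling, was on the other side at 36.3 ± 0.984 CPM in *Fnip1* null and 50.5 ± 10.2 CPM in wildtype mice (log2 fold change -0.48, adjusted p = 0.114, -0.50 without mouse 9121). *Pycr1*, a proline-synthesis enzyme, did not pass the filter, with 1 to 8 counts per mouse.

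Promoter stretches are shown for 3 companion genes with a large fold change and a match to TGATGNAA, with the match on the opposite strand in capitals.
Nupr1: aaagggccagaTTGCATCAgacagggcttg
Atf3: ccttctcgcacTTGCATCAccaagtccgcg
Slc1a4: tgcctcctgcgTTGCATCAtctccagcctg
They lie on the minus strand at chr7:126625562-126625591, chr1:191183425-191183454 and chr11:20332699-20332728. The same letters were in the windows of 15 of the 97 companion genes with a matched promoter (15.5%), and in 3.97% of all windows. Many companion genes were listed as part of the ATF4 response, and a gene can have more than 1 window, so these shares are not a test. The 3 genes shown lay on both sides of 0 but were picked for a large fold change. Others with the match were the synthetases *Aars*, *Gars*, *Iars*, *Tars* and *Yars*, from a list that spanned only -0.44 to 0.14. *Fgf21*, *Pycr1* and *Slc7a11* also had the match and were not tested.

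Of 9 amino acid transporters of the ATF4 response, 7 were tested, 3 higher and 2 lower at an unadjusted p under 0.05 (14.0% and 11.2% of all genes). *Slc3a2*, the heavy chain shared by several exchangers, was at 277, 345 and 330.3 CPM in *Fnip1* null mice 8637, 9210 and 9121 and at 200.1 and 189 CPM in wildtype mice 9055 and 9056. The groups did not overlap (fold change 1.63, 95% interval 1.33 to 2.01, adjusted p = 0.0644), and the log2 fold change was 0.71, or 0.68 without mouse 9121. *Slc1a4*, a transporter of serine, alanine and threonine, was on the other side at 23.1, 11.7 and 18.3 CPM against 32.99 and 52.97 CPM, mice in the same order (log2 fold change -1.28, adjusted p = 0.0954, -1.30 without mouse 9121). *Slc7a11*, the cystine exchanger, had 0 to 8 counts per mouse and was not tested.

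The 19 aminoacyl-tRNA synthetases, which charge transfer RNAs, had log2 fold changes from -0.44 for *Farsb* (adjusted p = 0.120, -0.40 without mouse 9121) to 0.14 for *Vars* (0.15 without mouse 9121). Among them 6 had a positive and 13 a negative value (median -0.12), with 0 higher and 4 lower at an unadjusted p under 0.05 (14.0% and 11.2% of all genes). Without overlap, 1 lay above and 8 below, against 22.9% and 23.0% of all genes.

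Around the serine path, 34 further serine, glycine and folate genes were listed and 32 tested, with 12 positive and 20 negative log2 fold changes (median -0.15) and 6 of the 32 on each side at an unadjusted p under 0.05 (14.0% of all genes higher and 11.2% lower). *Aldh1l2*, the mitochondrial formyltetrahydrofolate dehydrogenase, had the highest value. It was at 10.5, 15.9 and 10.8 CPM in *Fnip1* null mice 8637, 9210 and 9121 and at 4.22 and 5.15 CPM in wildtype mice 9055 and 9056. All 3 *Fnip1* null mice were above both wildtype mice (fold change 2.63, 95% interval 1.74 to 3.98, adjusted p = 0.0644). The log2 fold change was 1.40, or 1.49 without mouse 9121. *Aldh1l1*, the cytosolic relative of *Aldh1l2*, lay below both wildtype mice in every *Fnip1* null mouse and was named after its values were seen. It was at 166.6, 140.8 and 147.0 RPKM in *Fnip1* null mice 8637, 9210 and 9121. In wildtype mice 9055 and 9056 it was at 167.6 and 195.2 RPKM. *Mthfd1l*, the mitochondrial formate-releasing enzyme, was at 4.52 ± 0.898 CPM in *Fnip1* null and 2.35 ± 1.06 CPM in wildtype mice (log2 fold change 0.94, adjusted p = 0.165, 1.10 without mouse 9121). Among the cytosolic enzymes, *Shmt1* was at 79.6 ± 18.2 CPM in *Fnip1* null and 56.8 ± 3.23 CPM in wildtype mice (log2 fold change 0.49, adjusted p = 0.190, 0.33 without mouse 9121) and *Mthfd1* had a log2 fold change of 0.06 (adjusted p = 0.723, 0.071 without mouse 9121). Per length, the ratio of *Shmt2* to *Shmt1* was 4.67 in mouse 8637, 2.68 in mouse 9210 and 1.80 in mouse 9121 of the *Fnip1* null group, against 5.46 and 7.39 in wildtype mice 9055 and 9056, also chosen after the values were seen and with no test. *Gldc*, the glycine decarboxylase, was at 148 ± 32.7 CPM in *Fnip1* null and 103 ± 15.7 CPM in wildtype mice (log2 fold change 0.52, adjusted p = 0.179, 0.68 without mouse 9121). *Cbs*, which uses serine to make cystathionine, had the lowest value of the list, at 182, 129 and 100.5 CPM in *Fnip1* null mice 8637, 9210 and 9121 and at 293 and 301 CPM in wildtype mice 9055 and 9056. The groups did not overlap (log2 fold change -1.11, adjusted p = 0.0769, -0.93 without mouse 9121), and mouse 9121 was again the lowest.

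**Figure D3:**
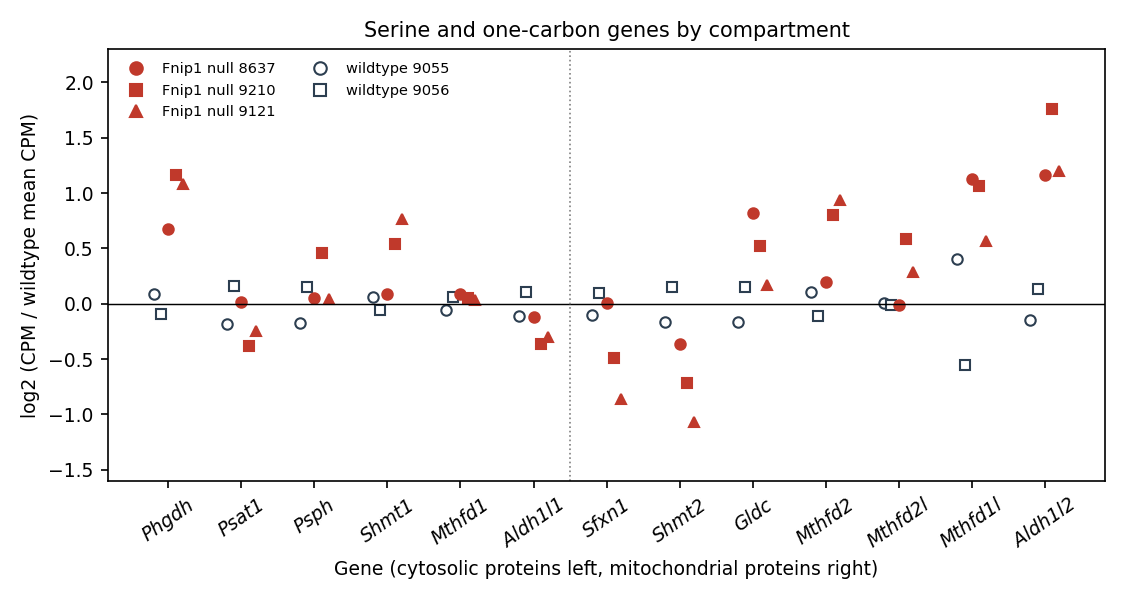
Log2 ratio of the TMM-normalized CPM of each mouse to the wildtype mean for 13 serine and one-carbon genes, with cytosolic proteins on the left and mitochondrial proteins on the right. Within the mitochondrial genes, *Shmt2* lies below 0 in all 3 *Fnip1* null mice while *Aldh1l2*, *Mthfd2* and *Mthfd1l* lie above both wildtype mice. Among the cytosolic genes, the groups overlap for *Psat1*, *Psph* and *Mthfd1*. In all 3 *Fnip1* null mice *Phgdh* and *Shmt1* lie above both wildtype mice, and *Aldh1l1* lies below them.

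Of 9 relatives and partners of ATF4 in the C/EBP family and the Tribbles family, 8 were tested and 6 had a positive log2 fold change (median 0.34), with 1 higher and 0 lower at an unadjusted p under 0.05 (14.0% and 11.2% of all genes). *Cebpd*, an acute-phase factor, had the highest value (1.48, adjusted p = 0.123), at 18.8 ± 9.76 CPM in *Fnip1* null and 6.75 ± 1.70 CPM in wildtype mice, and 0.98 without mouse 9121. *Cebpb*, which pairs with ATF4, had 0.39 (adjusted p = 0.432, 0.62 without mouse 9121), *Cebpg* -0.07 (adjusted p = 0.705, -0.13 without mouse 9121 and 0.087 under library size scaling) and *Trib2* -0.43 (adjusted p = 0.288, -0.32 without mouse 9121).

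The chaperones and folding factors of the other arms of the unfolded protein response, ATF6 and XBP1, lay mostly lower. Of 22 genes, 21 had a negative log2 fold change (median -0.32), 15 lay below in every *Fnip1* null mouse without overlap against 23.0% of all genes, and 11 were lower and 0 higher at an unadjusted p under 0.05 against 11.2% of all genes. None passed the threshold by any of the 4 tests. *Hspa5*, the chaperone BiP, had a log2 fold change of -0.42 (adjusted p = 0.217, -0.29 without mouse 9121). *Edem1*, which marks misfolded proteins for degradation, had the lowest value, at 100 ± 22.7 CPM in *Fnip1* null and 178 ± 8.23 CPM in wildtype mice (-0.83, adjusted p = 0.0803, -0.71 without mouse 9121), and *Dnajb9* the highest (0.05, and 0.11 without mouse 9121). The endoplasmic reticulum stress element (ERSE), known from these chaperone promoters, was found on either strand in 0.119% of all windows and in 0 of the 10 genes. It was in 9 of the 97 companion genes with a matched promoter (9.28%). These were *Calr*, *Canx*, *Creld2*, *Derl3*, *Dnajc3*, *Hsp90b1*, *Hspa5*, *Pdia6* and *Syvn1*. Because the element is known from such chaperones and they were listed by role, these shares are not a test.

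All 7 glutathione genes related to *Chac1* in function had a negative log2 fold change (median -0.72), and all 7 lay below both wildtype mice in every *Fnip1* null mouse with an unadjusted p under 0.05, against 23.0% of all genes below without overlap and 11.2% lower at that p. Their adjusted p ran from 0.0567 to 0.151. *Ggct*, a gamma-glutamylcyclotransferase that acts on the products of glutathione breakdown, was at 19.5, 11.8 and 13.4 CPM in *Fnip1* null mice 8637, 9210 and 9121 and at 36.2 and 41.8 CPM in wildtype mice 9055 and 9056 (fold change 0.381, 95% interval 0.264 to 0.551, adjusted p = 0.0567), with a log2 fold change of -1.39, or -1.32 without mouse 9121. *Chac2*, the constitutive relative of *Chac1*, was at 22.5 ± 5.36 CPM in *Fnip1* null and 34.9 ± 2.00 CPM in wildtype mice (log2 fold change -0.63, adjusted p = 0.131, -0.48 without mouse 9121), and *Oplah*, the oxoprolinase, had -0.42 (adjusted p = 0.151, -0.35 without mouse 9121). Several genes of this pathway are strongly expressed in proximal tubule, of whose 6 S3 markers 4 lay lower in the same mice, and the part of that difference was not tested.

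**Figure D4:**
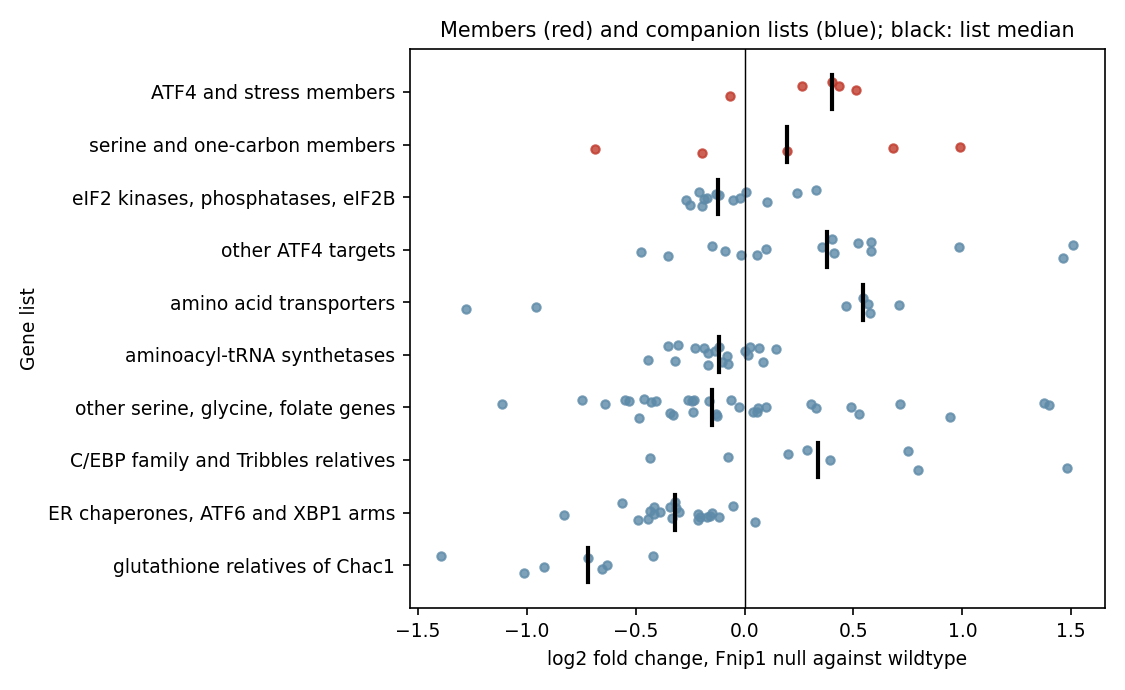
Log2 fold change (*Fnip1* null against wildtype) of each tested gene, with the 10 genes split in 2 rows (red), the 8 companion lists (blue) and black bars for list medians. The medians run from -0.72 for the glutathione genes to 0.55 for the amino acid transporters, and single genes lie on both sides of 0 in every list but the glutathione genes.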

How the data were processed

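Paired-end reads had been quality filtered and aligned by the authors to mm10 (TopHat2 2.1.0 in the submitters' processing notes), and HTSeq 0.6.1 gave counts for each gene symbol. The deposited values are raw counts, and 39.0% to 42.8% of the entries in each file (28.3% to 31.4% with more than 1 alignment) fell in HTSeq's summary lines and were left out. Genes with fewer than 10 counts in more than 2 of 5 mice were removed. Counts were normalized by TMM and compared by the quasi-likelihood test of edgeR 4.0.16 (R 4.3.3, limma 3.58.1) with Benjamini-Hochberg adjustment over all 13874 genes, at an FDR of 5% and 2-fold. SE and 95% intervals were derived from the log2 fold change and the quasi-likelihood F statistic. The scripts were tested on simulated data. Alternatives were DESeq2 1.42.0, other edgeR tests, scalings and filters, and leaving out each mouse. Coordinates and exon lengths are from GENCODE M21 and promoters from RefSeq, both GRCm38, matched by symbol.

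The 10 genes, the companion lists and the marker lists were chosen with earlier results of these data known. Named companion genes were 20 fixed by role, any past the threshold, and the highest and lowest of each list with a mean of at least 1 CPM. Fold changes count bulk RNA, so cell composition and expression per cell enter together.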

Additional observations from a re-analysis of the deposited data

How the results depend on the processing

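The 10 genes gave 0 past the threshold under all planned tests, scalings and filters with 5 mice. With 1 mouse left out the count ran from 0 to 1 (*Phgdh*, without mouse 8637). For all genes tested it was 73, but 570 with the exact test, 628 with the likelihood ratio test and 489 with DESeq2. It was 136 without mouse 9121 and 963 without mouse 8637. The calls of a single gene thus depend on the test and on which mice are included. Without wildtype mouse 9055 or 9056, or without *Fnip1* null mouse 9210, the count was 0. The companion genes gave 0, but 1 with the FDR alone, against 0.678% of all genes. They gave 8 with the exact test, 8 with the likelihood ratio test and 8 with DESeq2, against 4.11%, 4.53% and 3.52% of all genes. With 1 *Fnip1* null mouse left out they gave 0 to 11, the 11 without mouse 8637, against 6.82% of all genes in that comparison. Counts of the 10 genes without overlap were recomputed by a choice made after seeing the data. They were 4 above and 1 to 2 below with 1 *Fnip1* null mouse left out, and 5 above with library size only. The share of all genes without overlap under these settings is not given here, so these counts are not a result about the 10 genes. The sign of *Atf4* reversed with library size only (0.096), as did *Cebpg* (0.087), and that of *Eif2ak3* without a filter (-0.0033). With 1 mouse left out, log2 fold changes ran from -0.14 to 0.0096 for *Atf4*, -0.17 to 0.83 for *Chac1*, -0.054 to 0.69 for *Asns*, -0.024 to 0.071 for *Eif2ak3*, -0.0029 to 0.66 for *Ddit4*, -0.13 to 0.0040 for *Cebpg*, -0.0022 to 0.12 for *Mthfd1* and -0.012 to 0.11 for *Dnajb9*. The cause was not tested. Leaving out a wildtype mouse leaves 1, assumed to vary like the *Fnip1* null mice. No paired analysis was possible because the mice share no replicate numbers. *Chac1* and *Trib3* had the fewest counts of the 10 genes, 7 to 31 per mouse.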
